A study of Arabidopsis thaliana with 15 samples.

Results

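In Arabidopsis thaliana seeds placed in abscisic acid (ABA) just after germination, 13 of 27981 measured genes showed a transient peak at 2 h. They were chosen on log2 signals from 1 probe set per gene, the one with the highest mean over the 15 arrays. The mean of 2 h replicates 1 and 3 had to be at least 6, and at least 1 above the mean at 0, 12, 24 and 72 h alike. Replicate 2 of 2 h was left out because that array stands apart from the others. The 13 genes were AFP1 (AT1G69260), HSFA6B (AT3G22830), NF-YC2 (AT1G56170), DMR6 (AT5G24530), PRN1 (AT3G59220), HB7 (AT2G46680), RNS1 (AT2G02990), MEE8 (AT1G25310), ERD14 (AT1G76180), and AT3G48510, AT1G49450, AT1G19970 and AT1G16515, which have no symbol in the reference gene table. All 13 are listed there as protein-coding.

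The plants were of ecotype Col-0. Seeds were kept at 4 °C for 72 h, germinated in constant white light at 22 °C, taken when the radicle came through, and held in 10 µM ABA in the dark at 20 °C. The 5 groups were seeds held for 0, 2, 12, 24 and 72 h, and each had 3 arrays from separate pools of seeds harvested from several plants. Germinated seeds held for the same times without ABA were not analysed here, so ABA, darkness, temperature and elapsed time cannot be told apart. Whole seeds were used, and a change in the share of a tissue cannot be told apart from a change in RNA per cell. Values are the authors' RMA signals on the log2 scale, differences are log2 differences, and ± gives the standard error of a fitted difference unless SD is written.

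ABA acts through receptors that, once bound, inhibit the clade A protein phosphatases 2C. This frees SnRK2 kinases to phosphorylate group A bZIP factors such as ABI5, which bind the promoters of genes for dehydration tolerance and growth arrest. Several ABA-induced genes encode parts that damp the pathway, among them the phosphatases themselves and the ABI5-binding proteins. Arabidopsis seeds lose their tolerance of drying as they germinate, and ABA can bring it back within a short window around radicle protrusion.

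The 2 h replicate 2 array correlated with the other 2 h arrays at r of 0.890 and 0.901 across genes, against 0.986 to 0.995 for all other pairs of replicates. Its interquartile range was 2.93, against 3.67 to 4.01 on the other arrays. HSFA9, a heat shock factor of late seed maturation, read 7.03 on it and 2.71 and 2.77 on 2 h replicates 1 and 3. Whether this library is mislabelled or mixed was not tested, so its values may not be those of seeds held for 2 h. Genes of oil mobilisation that mark germinated seeds were bright, with ICL at 11.67, MLS at 11.39 and PCK1 at 11.45 at 0 h. The mean of the 5 endosperm markers was 7.28 to 7.36 on the 0 h arrays, 7.64 and 8.26 on 2 h replicates 1 and 3, 8.50 to 8.57 at 12 h and 7.55 to 7.70 at 72 h. The mean of the 8 seed coat markers was 3.95 to 4.20 at 0 h, 3.98 and 4.06 on 2 h replicates 1 and 3, and 4.70 on 2 h replicate 2. RMA gives no zeros, and the seed coat markers BAN, TT10 and TT8 were at 2.80, 2.97 and 2.98 at 0 h. The endosperm markers moved with time, but not all alike. From 0 h to the mean of 2 h replicates 1 and 3, MAN7 went from 5.92 to 8.90. EPR1 went from 9.32 to 9.45, EXPA2 from 9.70 to 9.65, MAN5 from 5.41 to 5.59 and MAN6 from 6.23 to 6.16. The part of the endosperm markers in the values of the 13 genes was not tested.

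The rule fixed the peak itself, so levels at 2 h are given as a description with no test. Relative to 0 h, the mean of 2 h replicates 1 and 3 was higher by 1.05 for ERD14 at the lowest measured and by 4.66 for AFP1 at the highest measured, with a median of 1.74 over the 13 genes and 0.01 over all genes. AT3G48510, at 4.47, started below the lower quartile of all genes, so its difference is a bound and its order against AFP1 is not settled. In 11 of the 13 genes both of these 2 h arrays lay above all 12 arrays of the other times, as in 2.13% of all genes. The rule chose the 13 on these same arrays, so nothing is read from this count. The exceptions were RNS1 and AT1G49450. Replicate 3 was above replicate 1 in 12 of the 13, HSFA6B being the exception, and in 44.1% of all genes. The rule gave 39 genes with replicate 3 as its only 2 h array and 7 with replicate 1 as its only 2 h array, so the list leans on replicate 3.

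**Figure D1:**
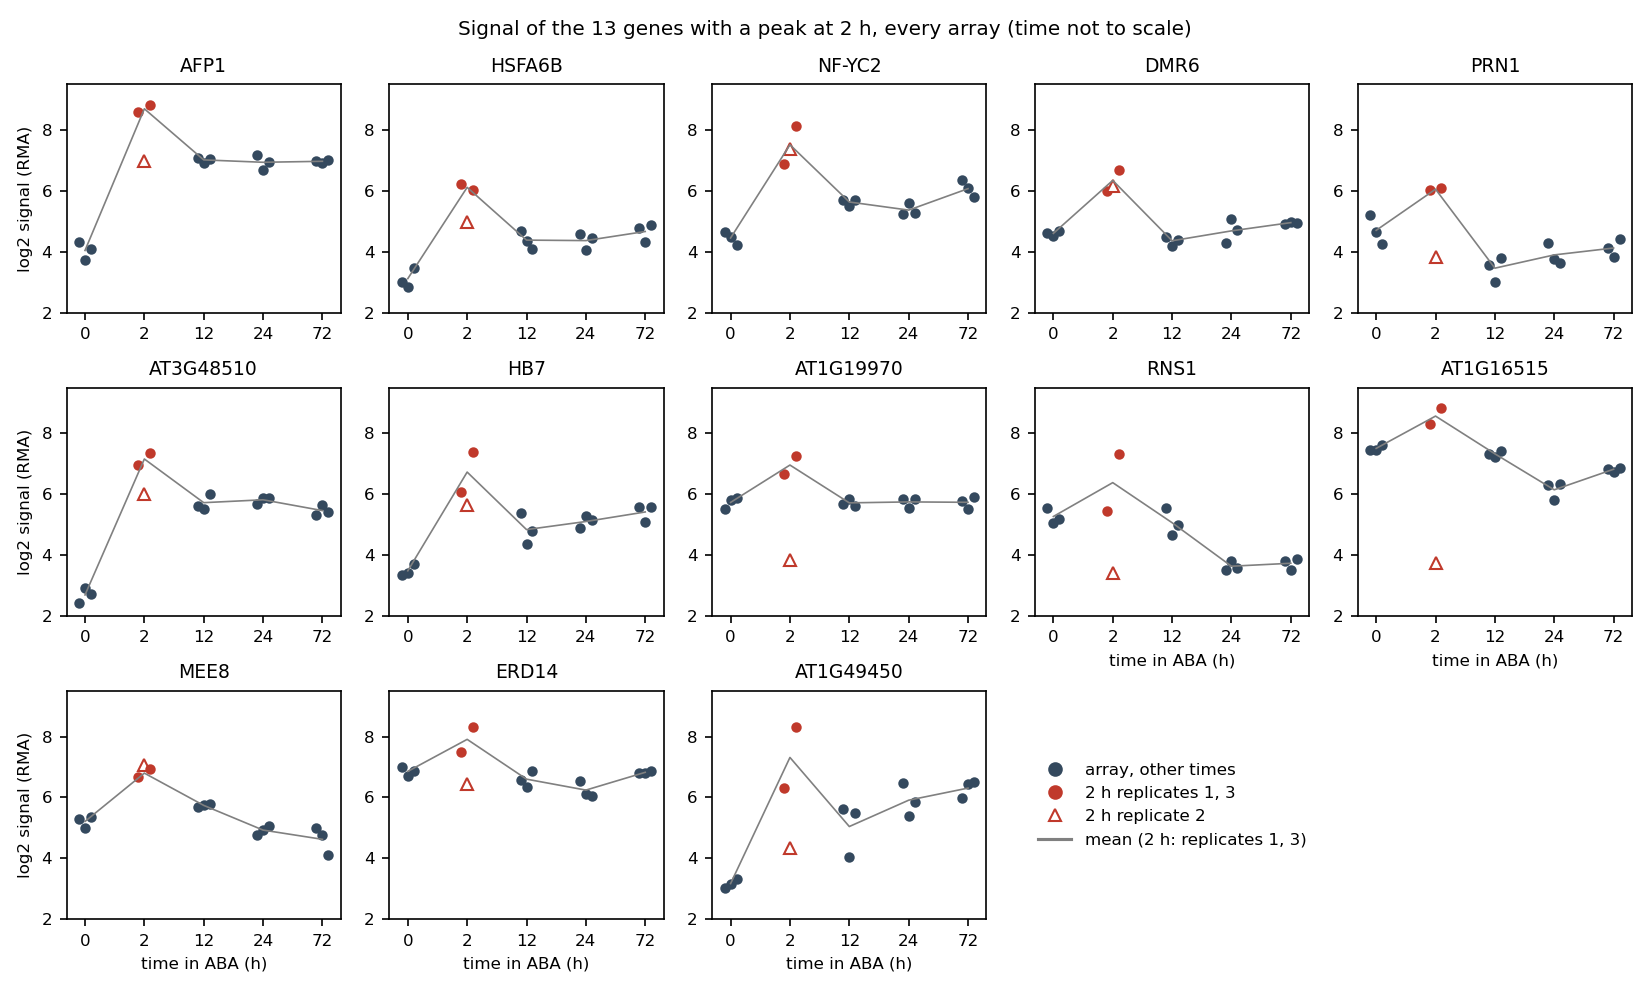
Log2 signal (vertical axis) of each of the 13 genes on every array against time in ABA in h (horizontal axis, not to scale). Dots are arrays, open triangles are 2 h replicate 2, and lines join the time means with 2 h replicates 1 and 3 only; AFP1 goes from 4.04 at 0 h to 8.70 at 2 h and 7.02 at 12 h.

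The gene with the largest excess encodes a damper of the pathway. AFP1 is an ABI5-binding protein that lowers ABI5 activity and weakens the response of seeds to ABA. It read 4.33, 3.72 and 4.09 at 0 h and 8.58 and 8.82 on 2 h replicates 1 and 3. It then read 7.07, 6.93 and 7.06 at 12 h, 7.18, 6.70 and 6.95 at 24 h and 6.97, 6.93 and 7.03 at 72 h. The peak lay 1.68 above the next highest time, 36.1% of the rise was gone by 12 h, and the arrays of the 3 later times overlapped. AFP1 at 12 h was still above 0 h by 2.98 ± 0.15 (limma, adjusted p = 3.71e-09, n = 3 per time), with no overlap between the arrays.

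The other members of the family, taken from a list of related genes, also had their highest mean at 2 h, but by less than the rule asks. Their 2 h mean exceeded the next highest time by 0.50 for AFP2, 0.48 for AFP3 and 0.25 for AFP4. AFP2 and AFP3 read 8.78 and 9.14, and 9.00 and 9.16, on 2 h replicates 1 and 3, against means of 6.28 and 6.11 at 0 h. AFP4 read 7.67 and 8.17 on the same arrays, against 7.44, 7.57 and 8.01 at 0 h, so its excess rests on replicate 3. At 72 h, AFP2 was above 0 h by 2.06 (limma, adjusted p = 1.41e-08) and AFP3 by 2.49 (adjusted p = 7.1e-08). AFP4 fell by 1.06 from 0 h to 12 h (limma, adjusted p = 0.000257) and rose by 0.79 from 12 h to 72 h (adjusted p = 0.00296). Its mean at 72 h was 7.40 against 7.67 at 0 h, a difference that was not called. Whether the course of AFP4 differs from that of its relatives was not tested.

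**Figure D2:**
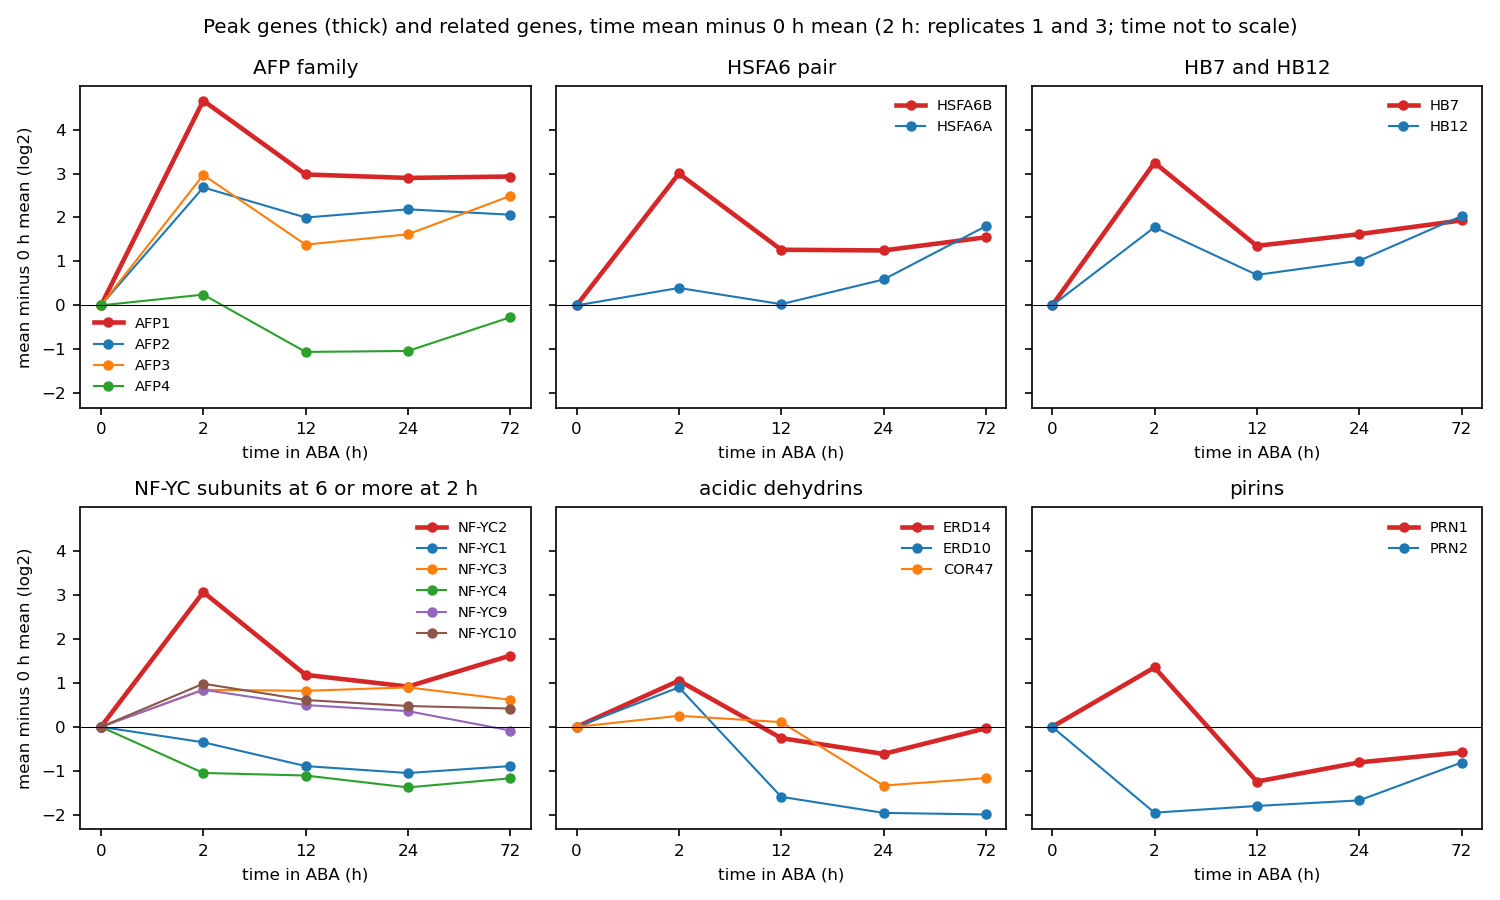
Mean log2 signal minus the 0 h mean of the same gene (vertical axis) against time in ABA in h (horizontal axis, not to scale) for 6 of the peak genes (thick lines) and related genes (thin lines), with 2 h replicates 1 and 3 at 2 h. At 2 h AFP1 stands at 4.66 and AFP4 at 0.25, and PRN1 at 1.35 while PRN2 lies at -1.95.

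The list included the transcription factor genes HB7, HSFA6B and NF-YC2. HB7 is a homeodomain leucine zipper factor induced by ABA and drought that raises expression of clade A phosphatase genes. It read 3.34, 3.41 and 3.70 at 0 h, 6.07 and 7.38 on 2 h replicates 1 and 3, and 5.37, 4.35 and 4.79 at 12 h. At 24 h it read 4.88, 5.28 and 5.14, and at 72 h 5.59, 5.08 and 5.58. The gap of 1.31 between the pair of 2 h arrays equals the excess of their mean over 72 h, 1.31, and the lower of them, 6.07, was still above every array of the other times.

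HB12, the close relative of HB7, with the same known roles in ABA and drought responses, did not meet the rule. It read 7.26 and 7.51 on 2 h replicates 1 and 3 against a mean of 5.61 at 0 h, but its mean at 72 h was 7.64. Of 15 HD-Zip I genes 3 were highest at 2 h, beside 18.2% of all genes, and HB7 alone met the rule. Against 0 h, 2 of the 15 rose and 4 fell at 12 h, beside 21.2% and 20.5% of all genes. At 72 h 6 rose and 1 fell, beside 25.1% and 27.1% of all genes, and HB12 stood above 0 h by 2.03 (limma, adjusted p = 5.9e-08).

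HSFA6B is a heat shock factor that ABA induces and that has been linked to heat tolerance downstream of ABA. It read 3.02, 2.86 and 3.48 at 0 h, 6.21 and 6.02 on 2 h replicates 1 and 3, and 4.70, 4.36 and 4.10 at 12 h. At 24 h it read 4.58, 4.05 and 4.47, and at 72 h 4.79, 4.33 and 4.88. The 0 h mean of 3.12 is below the lower quartile of all genes at 0 h, 3.16. Signals were not tested against background, so a difference from such a level is a bound.

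HSFA6A, of the same class, read 3.30 and 2.89 on 2 h replicates 1 and 3 and was highest at 72 h, with a mean of 4.50. HSFA6A stood above 0 h by 1.80 at 72 h (limma, adjusted p = 3.22e-06), where HSFA6B stood above it by 1.55 ± 0.21 (adjusted p = 2.38e-05). Of 21 heat shock factor genes 2 were highest at 2 h, beside 18.2% of all genes. At 72 h against 0 h 12 rose and 2 fell, beside 25.1% and 27.1% of all genes.

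NF-YC2 encodes a subunit of nuclear factor Y, the trimer that binds CCAAT boxes and that takes part in flowering and ABA responses through several of its subunits. It read 4.65, 4.48 and 4.23 at 0 h and 6.90 and 8.14 on 2 h replicates 1 and 3. It read 5.70, 5.51 and 5.71 at 12 h, 5.25, 5.60 and 5.26 at 24 h and 6.35, 6.09 and 5.79 at 72 h. A second probe set of the gene also met the rule, with a 2 h mean of 6.25 and an excess of 1.10.

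None of the other 9 NF-YC genes measured met the rule, on a list written after the 13 genes were known. NF-YC9 and NF-YC10 were highest at 2 h by 0.35 and 0.37. NF-YC4 fell by 1.11 from 0 h to 12 h (limma, adjusted p = 2.45e-06), while NF-YC3 rose by 0.82 (adjusted p = 0.000328).

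MEE8, named from a mutant screen for embryo arrest under maternal control, was the gene in which all 3 arrays at 2 h stood closest together. It read 5.28, 4.99 and 5.36 at 0 h and 6.66, 7.06 and 6.93 on the 2 h arrays in order of replicate. It read 5.69, 5.75 and 5.78 at 12 h, 4.78, 4.94 and 5.06 at 24 h and 5.01, 4.76 and 4.10 at 72 h. Each of the 2 h arrays lay above every array of the other times, as they also did for HSFA6B, NF-YC2, DMR6 and HB7. The rule used replicates 1 and 3, so nothing is read from this.

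Among genes for protective proteins and enzymes, ERD14 encodes an acidic dehydrin, a disordered protein that accumulates on dehydration and cold and protects other proteins and membranes. It read 6.99, 6.71 and 6.87 at 0 h and 7.49 and 8.32 on 2 h replicates 1 and 3. It read 6.57, 6.36 and 6.87 at 12 h, 6.56, 6.12 and 6.04 at 24 h and 6.81, 6.79 and 6.88 at 72 h. The excess over 0 h was 1.05, and a second probe set of the gene had 0.73 and missed the rule.

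Of 8 named dehydrin genes, listed after ERD14 was known to be a member, 3 were highest at 2 h, beside 18.2% of all genes. At 12 h against 0 h 4 rose and 1 fell, beside 21.2% and 20.5% of all genes. RAB18, a dehydrin gene long used as a marker of the ABA response, had a mean of 10.18 on 2 h replicates 1 and 3 but 11.54 at 72 h, and stood above 0 h by 5.30 at 72 h (limma, adjusted p = 2.71e-13). ERD10, for another acidic dehydrin, read 6.61, 6.51 and 6.88 at 0 h and 6.84 and 8.30 on 2 h replicates 1 and 3. It missed the rule at an excess of 0.90, which rests on replicate 3, since replicate 1 was inside the 0 h range. ERD10 fell by 1.59 from 0 h to 12 h (limma, adjusted p = 2.43e-07). ERD14 changed by -0.26 ± 0.15 over the same interval (adjusted p = 0.204).

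DMR6 encodes a salicylic acid hydroxylase that limits immunity to downy mildew and other pathogens. It read 4.61, 4.51 and 4.70 at 0 h, 5.99 and 6.70 on 2 h replicates 1 and 3, and 4.50, 4.20 and 4.39 at 12 h. It read 4.28, 5.08 and 4.70 at 24 h and 4.93, 4.99 and 4.96 at 72 h. All 3 arrays of DMR6 at 12 h lay below all 3 at 0 h, but the difference of -0.24 (95% confidence interval -0.59 to 0.11) was not called. Its relatives DLO1 and DLO2 did not meet the rule and read 2.88 and 2.99, and 4.05 and 4.02, on 2 h replicates 1 and 3. DLO2, with a 0 h mean of 3.46, was also highest at 2 h, by 0.21, while DLO1 was not.

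PRN1 encodes a pirin, a cupin-fold protein that interacts with the G protein alpha subunit and has been tied to the control of germination by ABA. It read 5.20, 4.66 and 4.26 at 0 h and 6.03 and 6.08 on 2 h replicates 1 and 3. It read 3.58, 3.01 and 3.80 at 12 h, 4.30, 3.76 and 3.63 at 24 h and 4.14, 3.82 and 4.42 at 72 h. PRN1 went from above to below its starting level, and every 12 h array was under every 0 h array. PRN2, a related pirin gene, had a 2 h mean of 4.56 against 6.51 at 0 h and fell by 1.80 from 0 h to 12 h (limma, adjusted p = 7.43e-06).

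RNS1 encodes a secreted ribonuclease known to be induced by phosphate starvation and wounding. It read 5.55, 5.06 and 5.19 at 0 h and 5.43 and 7.33 on 2 h replicates 1 and 3. The peak rests on replicate 3, since replicate 1 was inside the range of the 0 h arrays. At 12 h RNS1 read 5.55, 4.65 and 4.99, and it then read 3.50, 3.81 and 3.58 at 24 h and 3.82, 3.51 and 3.86 at 72 h. RNS2 and RNS3, of the same enzyme family, had 2 h means that differed from their highest other time by -0.23 and -0.57.

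Of the 4 genes without a symbol, 2 started from low levels. AT3G48510 read 2.42, 2.93 and 2.71 at 0 h, below the lower quartile of all genes, and 6.96 and 7.35 on 2 h replicates 1 and 3. It stayed between 5.31 and 6.01 on all 9 later arrays. AT1G49450 read 3.03, 3.15 and 3.33 at 0 h and 6.31 and 8.32 on 2 h replicates 1 and 3. Its later values were 5.61, 4.05 and 5.47 at 12 h, 6.49, 5.40 and 5.84 at 24 h and 5.96, 6.45 and 6.51 at 72 h, so replicate 1 of 2 h lay within the 24 h and 72 h values.

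The other 2 started higher. AT1G19970 read between 5.51 and 5.91 on all 12 arrays away from 2 h and 6.65 and 7.27 on 2 h replicates 1 and 3. AT1G16515 read 7.46, 7.45 and 7.61 at 0 h and 8.30 and 8.83 on those 2 h arrays. It then read 7.33, 7.23 and 7.41 at 12 h, 6.30, 5.80 and 6.34 at 24 h and 6.84, 6.74 and 6.87 at 72 h.

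How far the genes came back was tested on the 12 arrays at 0, 12, 24 and 72 h, with no 2 h array in the fit. The means of these times also entered the rule, which bounds each of them from above, so the tests are not independent of how the genes were chosen. ERD14 leaves the list without 0 h replicate 2 and AT1G49450 without 72 h replicate 1. The rule sets no difference between these times. Tests were two-sided, and a gene was called at an adjusted p under 0.05 by limma over all 27981 genes. The comparisons with 0 h share the 0 h arrays, so their values are given side by side and not as separate evidence. HSFA6B and AT3G48510, at 3.12 and 2.69, started below the lower quartile of all genes at 0 h, 3.16, and AT1G49450 started near it, at 3.17. Differences of these genes from 0 h are bounds, and the order of AT3G48510 and AT1G49450 against AFP1 is not settled.

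At 12 h against 0 h, 7 of the 13 genes rose and 1 fell. Over all genes 41.7% were called, 21.2% up and 20.5% down. AT3G48510 rose by 3.03 ± 0.15 (adjusted p = 4.03e-09), AFP1 by 2.98 ± 0.15, AT1G49450 by 1.88 ± 0.35 (adjusted p = 0.000715), HB7 by 1.35 ± 0.22, HSFA6B by 1.27 ± 0.21 and NF-YC2 by 1.18 ± 0.15. MEE8 rose by 0.53 ± 0.19 (adjusted p = 0.0363), a call lost on leaving out any 1 array of either time but 0 h replicate 3. PRN1 fell by 1.24 (adjusted p = 0.00163). DMR6, ERD14, RNS1, AT1G16515 and AT1G19970 were not called, with differences from -0.26 to -0.02. With all 15 arrays in the fit the calls of PRN1, MEE8 and AT1G49450 were lost. With 14 arrays, all but 2 h replicate 2, no call was lost.

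At 24 h against 0 h, 6 of the 13 rose and 4 fell, beside 50.1% of all genes called, 24.0% up and 26.1% down. AT3G48510 stood above 0 h by 3.13 ± 0.15, AFP1 by 2.90 ± 0.15, AT1G49450 by 2.74 ± 0.35, HB7 by 1.62 ± 0.22, HSFA6B by 1.25 ± 0.21 and NF-YC2 by 0.92 ± 0.15 (largest adjusted p = 0.000191, for NF-YC2). RNS1 fell by 1.64 (adjusted p = 1.11e-05), AT1G16515 by 1.36 (adjusted p = 1.23e-06), PRN1 by 0.81 (adjusted p = 0.0194) and ERD14 by 0.62 (adjusted p = 0.00363). All 3 arrays at 24 h were below all 3 at 0 h for RNS1, AT1G16515 and ERD14, whereas for PRN1 they overlapped. The call of PRN1 was lost without 0 h replicate 1, 24 h replicate 2 or 24 h replicate 3. None of the 4 falls was called with all 15 arrays in the fit. All 4 were called with 14 arrays, all but 2 h replicate 2.

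At 72 h against 0 h, 6 of the 13 rose and 3 fell, beside 52.2% of all genes called, 25.1% up and 27.1% down. AT1G49450 was above 0 h by 3.14 ± 0.35 (adjusted p = 4.57e-06), AFP1 by 2.93 ± 0.15, AT3G48510 by 2.77 ± 0.15, HB7 by 1.93 ± 0.22, NF-YC2 by 1.62 ± 0.15 and HSFA6B by 1.55 ± 0.21. RNS1 fell by 1.54 (adjusted p = 1.77e-05), AT1G16515 by 0.69 (adjusted p = 0.00055) and MEE8 by 0.59 (adjusted p = 0.017). The call of MEE8 was lost without 0 h replicate 1, 0 h replicate 3 or 72 h replicate 3. PRN1 missed the threshold at -0.58 ± 0.26 (adjusted p = 0.0808) and passed it without 0 h replicate 3, and AT1G19970 differed by 0.00 (95% confidence interval -0.30 to 0.30). RNS1 and AT1G16515 were not called with all 15 arrays in the fit, but were called with 14, all but 2 h replicate 2.

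**Figure D3:**
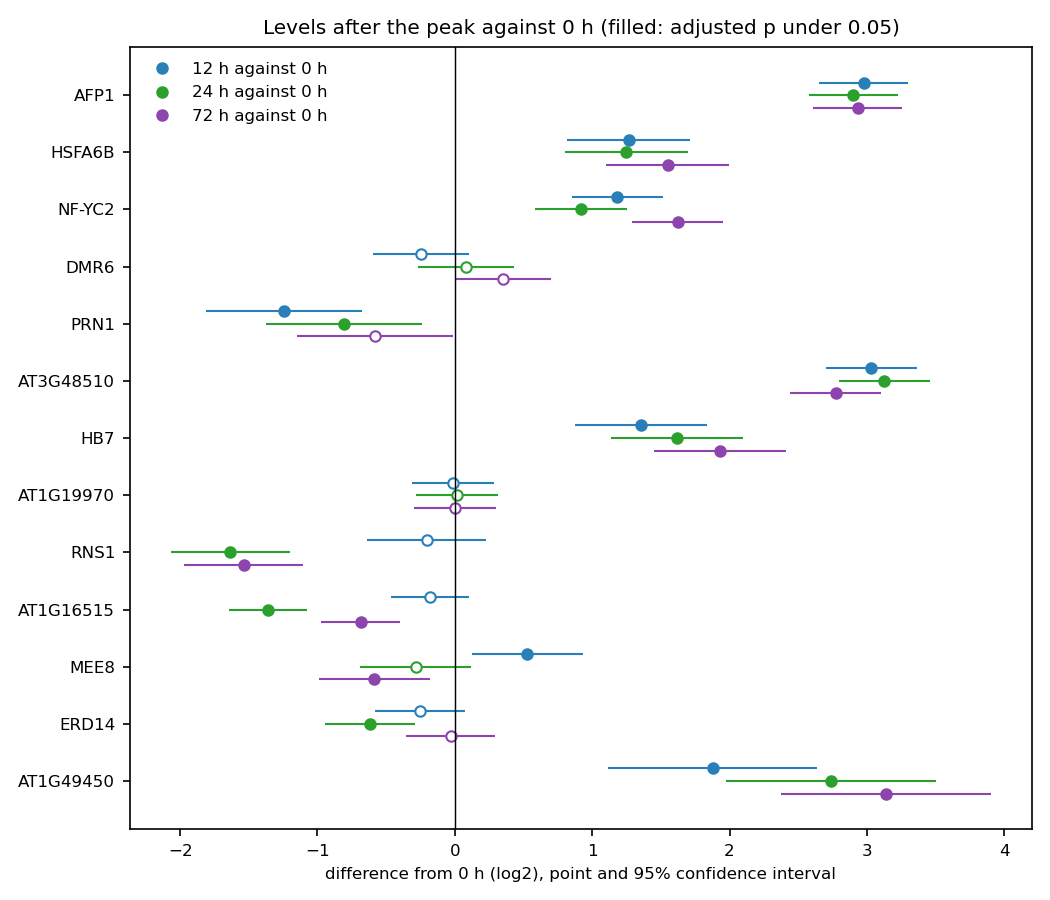
Log2 difference from 0 h at 12, 24 and 72 h (horizontal axis) for each of the 13 genes (vertical axis), from the fit of 12 arrays. Points are fitted differences, lines are 95% confidence intervals, and filled points passed an adjusted p of 0.05; AFP1 and AT3G48510 stand between 2.77 and 3.13 and RNS1 at -0.20, -1.64 and -1.54.

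From 12 h to 72 h, 3 of the 13 genes rose and 3 fell, beside 36.9% of all genes called, 17.2% up and 19.7% down. With each array centred on its median 5 of the 13 rose and 3 fell. AT1G49450 rose by 1.26 ± 0.35 (limma, adjusted p = 0.0121), DMR6 by 0.60 ± 0.16 (adjusted p = 0.0102) and NF-YC2 by 0.44 ± 0.15 (adjusted p = 0.0394). The call of NF-YC2 was lost on leaving out any 1 array of these times except 72 h replicate 3. RNS1 fell by 1.33 (adjusted p = 0.000153), MEE8 by 1.12 (adjusted p = 0.000371) and AT1G16515 by 0.51 (adjusted p = 0.008). AFP1 changed by -0.05 (95% confidence interval -0.37 to 0.28) and AT3G48510 by -0.26 (adjusted p = 0.221). HB7, at 0.58, passed without 12 h replicate 1 or 72 h replicate 2, and PRN1, at 0.66, without 12 h replicate 3 or 72 h replicate 2. The only call made with all 15 arrays in the fit was MEE8. With 14 arrays, all but 2 h replicate 2, only the call of NF-YC2 was lost.

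The 2 h replicate 2 array did not enter the rule. Its values are those of the library labelled 2 h replicate 2, with the limit given above. It lay below the mean of replicates 1 and 3 in 12 of the 13 genes, MEE8 being the exception, with a median difference of -1.46. Over the other 11188 genes with a 2 h mean of at least 6 the median difference was -0.33, and 67.5% lay below. Replicate 2 was at least 1 below in 10 of the 13 genes, beside 20.9% of those other genes. Genes chosen for high values on replicates 1 and 3 tend to read lower on any other array, so nothing is read from these counts. With replicate 2 as the only 2 h array the rule was met by 3 of the 13, which were NF-YC2, DMR6 and MEE8, and by 404 of all genes (1.44%).

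Set against 0 h in a limma fit of 13 arrays, replicate 2 was called higher in 7 of the 13 genes and lower in 4, beside 70.3% of all genes called, 41.9% higher and 28.4% lower. The fit takes its error from the other times, and the correlations and interquartile range of this array go against that. The calls therefore describe how 1 array differs from 0 h and do not measure change at 2 h, and differences are given with no error or p. AT3G48510 was higher by 3.31, AFP1 by 2.94, NF-YC2 by 2.92, HB7 by 2.17, HSFA6B and MEE8 by 1.85 each and DMR6 by 1.56. Lower were AT1G16515 (-3.78), AT1G19970 (-1.88), RNS1 (-1.87) and PRN1 (-0.88), and the call of PRN1 was lost without 0 h replicate 1 or 0 h replicate 2. AT1G49450 (1.17) and ERD14 (-0.40) were not called.

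Set against 12 h in the same fit and with the same limit, replicate 2 was called higher in 4 of the 13 genes and lower in 3, beside 66.5% of all genes called, 39.5% higher and 27.0% lower. DMR6 was higher by 1.80, NF-YC2 by 1.73, MEE8 by 1.32 and HB7 by 0.82, the last call being lost without 12 h replicate 2 or 12 h replicate 3. AT1G16515 (-3.60), AT1G19970 (-1.87) and RNS1 (-1.67) were lower. HSFA6B, at 0.58, was called without 12 h replicate 1, and AT1G49450, at -0.71, without 12 h replicate 2. AFP1 on this array, 6.99, lay within the range of its 12 h arrays. The 0 h and 12 h arrays entered the rule, and only the 2 h side of these comparisons is free of it.

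**Figure D4:**
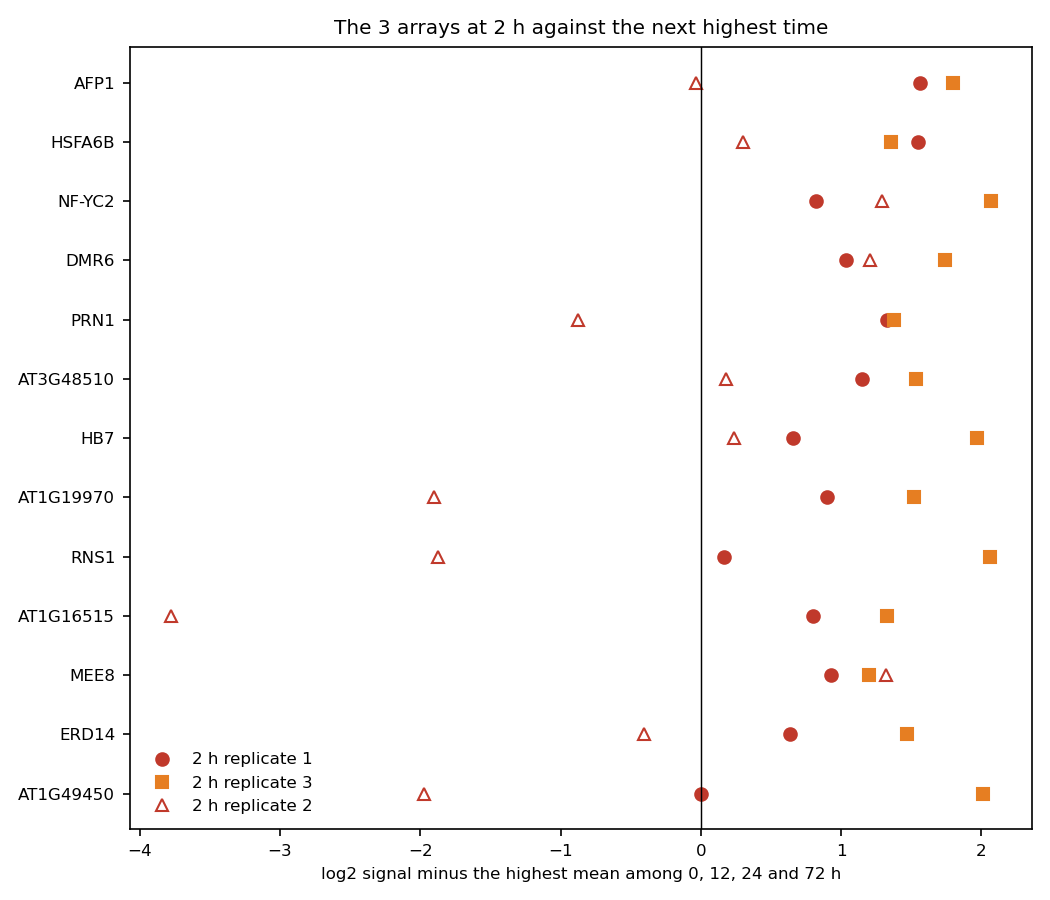
Log2 signal of each array at 2 h minus the highest mean among 0, 12, 24 and 72 h (horizontal axis) for the 13 genes (vertical axis). Replicates 1 and 3 (filled) chose the genes, replicate 2 (open) did not enter the rule, and replicate 2 lies at 1.29 for NF-YC2, 1.20 for DMR6 and 1.32 for MEE8 but at -3.78 for AT1G16515.

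The thresholds cut through a continuous range. Just inside the excess of 1 were AT1G49450 (1.01), ERD14 (1.05), AT1G16515 (1.06) and MEE8 (1.06). Just outside were AT1G24580 (0.99), SUC2 (0.96), which encodes the sucrose carrier that loads phloem, ENODL2 (0.94) and AT5G65990 (0.92). A further 5 genes met the excess but not the level of 6. The largest excess of these 5 was 1.87, for AT5G10040 at a 2 h mean of 5.44, and it exceeded the 1.68 of AFP1. The 5 also included HAI1, a clade A phosphatase gene, with an excess of 1.42, and MAPKKK18, a kinase gene known to be induced by ABA, with 1.25.

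Lists written for these data held 310 genes in 27 groups, of which 3 groups held a peak gene. The groups covered the ABA pathway and stress, and also other hormones, shade growth, the clock and seed tissue markers. Over all genes 18.2% were highest at 2 h by the mean of replicates 1 and 3, and over the listed genes 59 of 310 (19.0%). By group this held for 4 of 9 clade A phosphatase genes, 2 of 14 receptor genes, 2 of 10 SnRK2 genes and 3 of 10 group A bZIP genes. ABF2, a bZIP factor of the ABA response, came closest to the rule among the latter with an excess of 0.91. Chosen after their values were seen, P5CS1, for a limiting step of proline synthesis, had an excess of 0.92, and the ubiquitin ligase gene PUB19 had 0.72. Among core hypoxia genes 7 of 15 were highest at 2 h, and among dark and starvation genes 8 of 15, all by less than 1. These counts come from the contrast that defines the peak and are given with no test.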

How the data were processed

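The deposited values are log2 signals for 35986 probe sets on 15 Affymetrix arrays, made by the authors with RMA per the submitters' processing notes. RMA corrects background, normalizes quantiles and summarizes probes. For its version, for the array design and for the build, the sources used here give nothing. Biotin-labelled cDNA came from 50 ng of total RNA, per the labels' protocols. No array had detection calls, so signals were not tested against background. The number of arrays limits the precision. Probe set names carry the locus, and the brightest of several was kept for 5838 loci. A reference gene table (TAIR10.1) gave names only.

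Linear models with moderated variances (limma 3.58.1, R 4.3.3) compared times on the 12 arrays at 0, 12, 24 and 72 h, with no further term, and 2 h replicate 2 with 0 h and 12 h on 13 arrays. P-values were adjusted by Benjamini and Hochberg over all 27981 genes. They set a difference against the spread between seed pools of the same time. In simulated data of the 72 h against 0 h comparison over 27981 genes, 88% of 100 genes changed by 1 and 100% of 100 changed by 2 were called, with 10 unchanged genes. In that of 2 h replicate 2 against 0 h, 62% and 98% were called, with 7 unchanged genes, for an array that varies like the others, which this one does not. Only these 100 and 100 genes were changed in the simulated data, with noise drawn separately for each gene. In the data 52.2% of all genes were called at 72 h against 0 h, so the simulated shares do not carry over to it.

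The members, lists and tests were chosen with earlier results of these data known. Named genes were all members, the 4 genes short of the excess, and listed relatives. AT5G10040, MAPKKK18, HAI1, ABF2, P5CS1 and PUB19 were named after their values were seen. The related-gene lists for NF-YC, DMR6, pirins, ribonucleases and dehydrins were written after the members were seen. Alternatives were a replicate term, repeated quantile normalization, median centring, a filter on the 25% of genes with the lowest mean, a variance trend, other arrays in the fit, adjusted p under 0.01, each array left out, and other forms of the rule. No sequences were used here.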

Additional observations from a re-analysis of the deposited data

How the results depend on the processing

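The number of peak genes was 6 with a 2 h mean of at least 7 and 1, AFP1, with an excess of at least 1.5. With the mean of all 3 arrays at 2 h it was 15, but only 4 of the 13 remained (AFP1, NF-YC2, DMR6 and MEE8). Leaving out each array of the rule gave 7 to 39 genes, the lowest without 2 h replicate 3, which kept 4 of the 13, and the highest without 2 h replicate 1, which kept 13. Without 0 h replicate 2 ERD14 was lost and without 72 h replicate 1 AT1G49450. Repeated quantile normalization kept all 13 with no addition, and centring gave 16, the 13 among them.

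With all 15 arrays in the fit the calls among the 13 were 5 at 12 h against 0 h (8 in the 12-array fit), 6 at 24 h against 0 h (against 10) and 1 at 72 h against 12 h (against 6). With 14 arrays, all but 2 h replicate 2, the calls in these 3 comparisons were 8, 10 and 5. At adjusted p under 0.01 there were 3 calls at 72 h against 12 h. Leaving out each array gave 7 to 8 calls at 12 h, 9 to 10 at 24 h and 8 to 9 at 72 h against 0 h, 5 to 7 at 72 h against 12 h, and 10 to 11 and 6 to 8 for 2 h replicate 2 against 0 h and 12 h. A replicate block gave 7, 10, 10, 7, 11 and 8 calls in that order of comparisons. It lost MEE8 at 12 h, gained PRN1 at 72 h against 0 h and against 12 h, and for 2 h replicate 2 exchanged PRN1 for AT1G49450 against 0 h and gained HSFA6B against 12 h. Array deviations of the same number correlated at -0.17 to 0.27, over 0.1 in 6 of 18 pairs, and 5 of 12 arrays matched best an array of their own number, so the numbers are not taken as pairs.

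For 2 h replicate 2 against 0 h, centring moved the median of all genes from 0.25 to 0.53 and the calls over all genes from 11723 higher and 7951 lower to 14483 and 5775; against 12 h the median moved from 0.18 to 0.51. Rescaling that array to the range of the others, chosen after seeing the data, gave 11 calls against 12 h (against 7) and turned AFP1 to 0.97 and ERD14 to 0.68. No direction of a called gene turned in the 4 comparisons among the other times. The planned counts of promoter motifs were not run, since promoter sequences were not used here.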

Other observations

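The mirror image of the peak, a mean of 2 h replicates 1 and 3 at least 1 below each of the other times with all of those at 6 or more, was met by 17 genes. With 2 h replicate 2 as the only 2 h array, 404 genes met the rule of the peak, and 3 of the 13 were among them.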
